A study of Mus musculus with 8 samples.

Results

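The enzymes that write, copy and erase DNA methylation were followed in mouse bone marrow-derived macrophages during 3 days with RANKL, the cytokine that turns macrophages into bone-resorbing osteoclasts. The list held 8 genes, Dnmt1, Uhrf1, Dnmt3a, Dnmt3b, Dnmt3l, Tet1, Tet2 and Tet3, and its members were the probes that carry one of these symbols in the platform annotation. There were 11 such probes of 6 genes among 25697 probes of 16593 named genes. Tet1 and Tet2 had no probe under their symbol and were not analysed here. The mice were C57BL/6 and 6 to 8 weeks old, and their marrow spent 16 h in M-CSF, the macrophage growth factor, at 5 ng/ml, after which the non-adherent cells were grown for 3 days in M-CSF at 30 ng/ml. The adherent macrophages at that point were day 0. The same cells after 1, 2 and 3 days in M-CSF at 30 ng/ml with RANKL at 50 ng/ml were the other groups, with 2 single-colour bead arrays for each of the 4 days. All groups therefore shared M-CSF, and no array came from cells kept in M-CSF without RANKL beyond day 0, so RANKL and time in culture cannot be told apart.

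Cytosine methylation at CpG dinucleotides is laid down by the de novo methyltransferases DNMT3A and DNMT3B and is copied to the new strand after replication by DNMT1. DNMT3L has no catalytic activity of its own and stimulates the de novo enzymes, a role best known from germ cells. UHRF1 binds hemimethylated DNA behind the replication fork and brings DNMT1 to it, while the TET dioxygenases oxidise 5-methylcytosine with 2-oxoglutarate as cosubstrate, which opens a route to its removal. In mouse osteoclast precursors, DNMT3A is known as a factor that silences antiosteoclastogenic genes such as Irf8.

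A probe counts as detected where its deposited detection p is under 0.05, which held for 43.9% to 44.2% of probes per array. Across the 12683 probes detected on at least 2 arrays, which are not independent of each other, arrays of one day had r = 0.993 to 0.995. Nothing in the labels tells whether a day's 2 arrays stem from different cultures or mice, so p-values measure the spread between these samples only, which may be technical. Of 8 macrophage markers, 6 had a probe and all 6 were detected (Csf1r and Cd68 were not analysed here), with a summed normalized intensity of 26800 to 28300 at day 3, against 50600 to 53800 at day 0. Lyz2 made up most of that sum, with log2 means of 15.2 at day 0 and 14.64 at day 3. From day 0 to day 3 the log2 changes were -6.32 for Fcgr1, -3.09 for Mertk, -2.73 for Adgre1, -2.30 for Cd14 and -0.56 for Lyz2. Itgam changed by -0.38 and did not pass. Of 10 osteoclast markers, 9 were detected on at least 2 arrays and Atp6v0d2 on none, and their sum was 82400 to 83000 at day 3, against 598 to 609 at day 0. In cell populations such as these, fewer cells of a type and less RNA per cell cannot be told apart.

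Detection divided the 11 probes into those that carried a signal and those that did not. The probe of Dnmt1, 1 of 2 probes of Uhrf1 (ILMN_2517041) and 1 of 2 probes of Dnmt3b (ILMN_1252310) were detected on all 8 arrays. Both probes of Dnmt3l were detected on all 4 arrays of days 0 and 1. At day 2 ILMN_1250149 was detected on 1 of 2 arrays and ILMN_3112268 on none, and at day 3 neither was detected. Both probes of Dnmt3a, both of Tet3, the other probe of Uhrf1 (ILMN_2497581) and the other of Dnmt3b (ILMN_3114377) were not detected on any of the 8 arrays. Only 5 probes of 4 genes could therefore be tested, and the 2 probes of Dnmt3l passed the filter through the days on which they were bright, so that a difference between days is built into their selection.

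**Figure D1:**
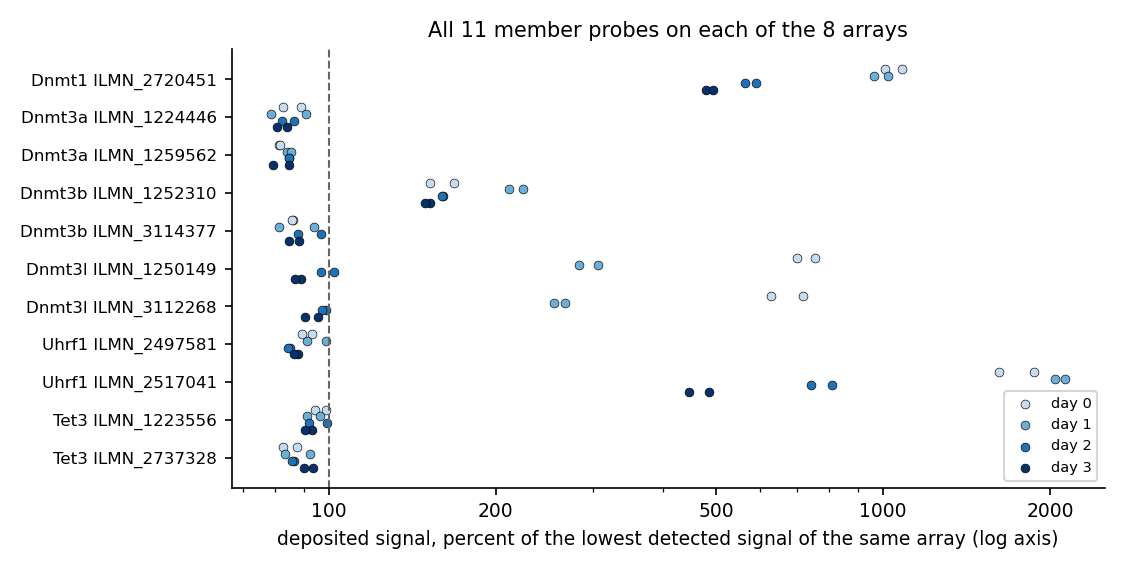
Deposited signal of each of the 11 probes on each array, as percent of the lowest signal that counted as detected on that array (log axis), with days 0 to 3 in darkening blue. The 6 probes that were not detected lie left of the dashed line at 100% on every array, while the Dnmt3l probes lie right of it at days 0 and 1, close to it at day 2 and left of it at day 3.

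The gene starts of the 4 measured genes are shown because CpG dinucleotides are the substrate of these enzymes and the genes differ in how many CpGs stand at their own starts. The windows run from 250 bases before to 50 after an annotated start (RefSeq, GRCm38.p6), and CpG dinucleotides are in capitals. The arrays did not measure which start was used.
Uhrf1, chr17:56304063-56304362, plus strand: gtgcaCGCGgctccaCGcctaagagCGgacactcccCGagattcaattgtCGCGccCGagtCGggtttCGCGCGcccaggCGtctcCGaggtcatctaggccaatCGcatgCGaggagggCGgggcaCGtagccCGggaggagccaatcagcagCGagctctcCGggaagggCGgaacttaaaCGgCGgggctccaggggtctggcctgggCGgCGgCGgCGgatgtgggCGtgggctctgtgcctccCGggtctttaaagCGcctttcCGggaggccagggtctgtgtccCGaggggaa
Dnmt1, chr9:20952574-20952873, minus strand: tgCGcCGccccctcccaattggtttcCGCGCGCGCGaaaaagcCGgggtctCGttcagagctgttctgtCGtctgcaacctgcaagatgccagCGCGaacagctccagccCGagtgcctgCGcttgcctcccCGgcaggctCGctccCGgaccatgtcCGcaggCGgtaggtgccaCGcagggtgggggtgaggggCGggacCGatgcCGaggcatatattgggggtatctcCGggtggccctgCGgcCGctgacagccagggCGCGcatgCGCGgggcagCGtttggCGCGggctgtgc
Dnmt3b, chr2:153649199-153649498, plus strand: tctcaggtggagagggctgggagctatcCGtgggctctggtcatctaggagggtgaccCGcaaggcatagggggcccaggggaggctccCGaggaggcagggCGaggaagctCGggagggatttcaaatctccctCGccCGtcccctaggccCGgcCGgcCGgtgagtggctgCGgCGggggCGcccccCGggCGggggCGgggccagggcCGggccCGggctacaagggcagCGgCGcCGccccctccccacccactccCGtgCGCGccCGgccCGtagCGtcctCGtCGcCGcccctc
Dnmt3l, chr10:78042037-78042336, plus strand: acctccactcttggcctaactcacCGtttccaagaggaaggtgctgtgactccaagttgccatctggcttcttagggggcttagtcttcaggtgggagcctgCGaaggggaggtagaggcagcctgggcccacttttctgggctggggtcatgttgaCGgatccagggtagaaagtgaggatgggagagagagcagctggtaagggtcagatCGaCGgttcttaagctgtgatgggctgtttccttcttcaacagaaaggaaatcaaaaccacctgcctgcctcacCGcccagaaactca

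The Uhrf1 and Dnmt1 windows held 33 CpGs each and the Dnmt3b window 30, against a median of 7 over the 32851 windows of all genes. The Dnmt3l window held 6, and the 2 windows at its other annotated starts held 4 and 3. Uhrf1 had another start with 12 CpGs, and Dnmt1 had further starts with 12 and 2. The Tet3 window held 22 CpGs and the 3 starts of Dnmt3a held 18, 46 and 47, and the probes of both genes were not detected. Tet1 and Tet2, which had no probe, held 17 and 57. The E2F motif TTTGGCGC, searched on both strands, was found at position +34 of the Dnmt1 window shown and in 0.514% of all windows. The other E2F spelling searched, TTTCCCGC (1.07% of all windows), and the PU.1 motif GAGGAAGT (3.2%) occurred in none of the 15 windows of the 8 genes. Further E2F spellings were not searched. One of them, TTTCGCGC, stands in the Uhrf1 window shown and, on the opposite strand, in the Dnmt1 window shown. Its share over all windows was not counted, so the search does not show which starts lack an E2F site. The E-box CACGTG (7.15%) occurred at 1 start each of Dnmt3a and Dnmt3l, neither of them shown.

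**Figure D2:**
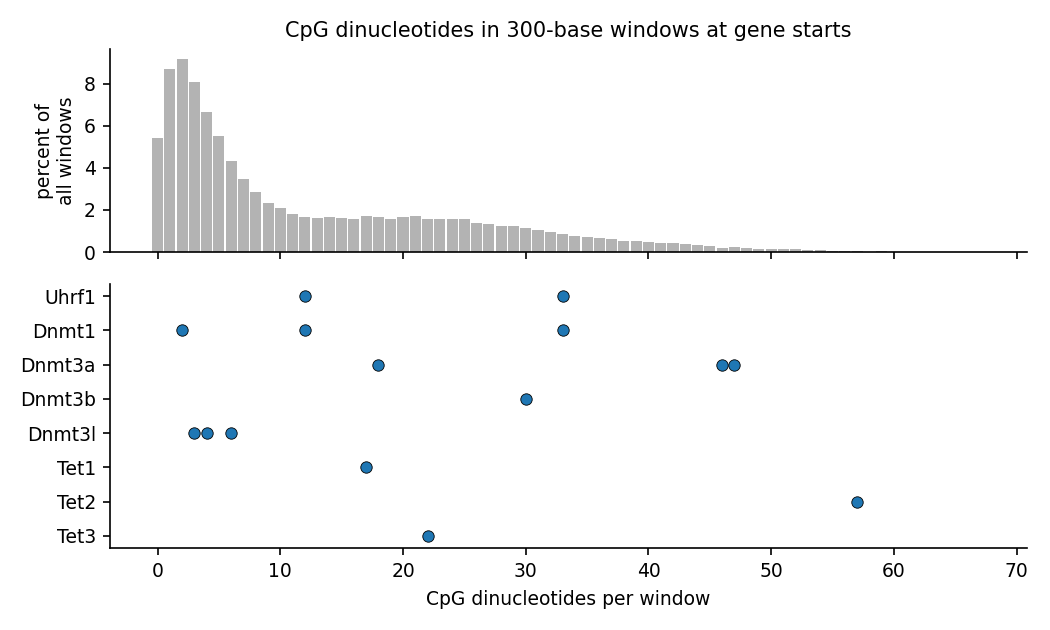
CpG dinucleotides per 300-base window at gene starts, as percent of all 32851 windows (top) and for each annotated start of the 8 genes (bottom, 1 point a start). The 3 starts of Dnmt3l lie at 3, 4 and 6 CpGs, while Uhrf1, Dnmt1, Dnmt3a, Dnmt3b and the Tet genes each have a start with at least 17.

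Uhrf1, the factor that recruits DNMT1 to hemimethylated DNA, fell after day 1 to 26.7% of its day 0 level at day 3. Its deposited signal on ILMN_2517041 was 3325 and 2889 at day 0, 3955 and 3741 at day 1, 1334 and 1535 at day 2 and 767 and 864 at day 3, on arrays whose lowest detected signal was 172 to 190. Both day 1 arrays lay above both day 0 arrays, and the arrays of days 2 and 3 lay below them without overlap. On the normalized log2 scale the means of days 0, 1, 2 and 3 were 11.52 ± 0.08, 11.75 ± 0.03, 10.34 ± 0.09 and 9.61 ± 0.08 (SD, n = 2 arrays). The change at day 3 against day 0 was -1.91 ± 0.10 (SE of the difference, limma adjusted p = 6.14e-06), a 3.75-fold lower level.

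The fall of Uhrf1 passed at both later steps, and the first step did not pass. Day 1 minus day 0 was 0.23 ± 0.10 with a 95% interval of 0.001 to 0.47, and it did not pass (limma adjusted p = 0.0963). It did pass with no background correction and with a trended, robust variance estimate (limma adjusted p = 0.0228 and 0.0284). Day 2 minus day 1 was -1.41 ± 0.10 (limma adjusted p = 8.11e-05) and day 3 minus day 2 was -0.73 ± 0.10 (limma adjusted p = 0.00618), so that days 1, 2 and 3 formed a falling order in which each neighbour differed. The drop between days 1 and 2 ranked 257 among the decreases of 12683 probes tested. The other probe, ILMN_2497581, gave signals of 151 to 183, or 84.5% to 98.9% of the lowest detected signal of its array, and has no measured direction.

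Dnmt1, the maintenance methyltransferase, fell to 48.4% of its day 0 level at day 3. Its signal was 1923 and 1804 at day 0, 1892 and 1765 at day 1, 1015 and 1120 at day 2 and 826 and 878 at day 3. The 4 arrays of days 0 and 1 interleaved in deposited signal and stood clear of the 4 later ones. Normalized log2 means of days 0, 1, 2 and 3 were 10.72 ± 0.009, 10.58 ± 0.002, 9.86 ± 0.04 and 9.68 ± 0.03 (SD, n = 2 arrays).

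The step of Dnmt1 that passed was that from day 1 to day 2. Day 2 minus day 1 was -0.72 ± 0.08 (limma adjusted p = 0.000602), while day 1 minus day 0 was -0.14 ± 0.08 (95% interval -0.34 to 0.06, limma adjusted p = 0.221) and day 3 minus day 2 was -0.19 ± 0.08 (95% interval -0.39 to 0.01, limma adjusted p = 0.166). In both of these pairs the normalized values of the later day lay below those of the earlier one without overlap, and the differences did not pass the adjusted threshold. Day 3 minus day 0 came to -1.05 ± 0.08 (limma adjusted p = 4.73e-05), a 2.07-fold lower level. Whether the changes of Uhrf1 and Dnmt1 differed in size was not tested.

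**Figure D3:**
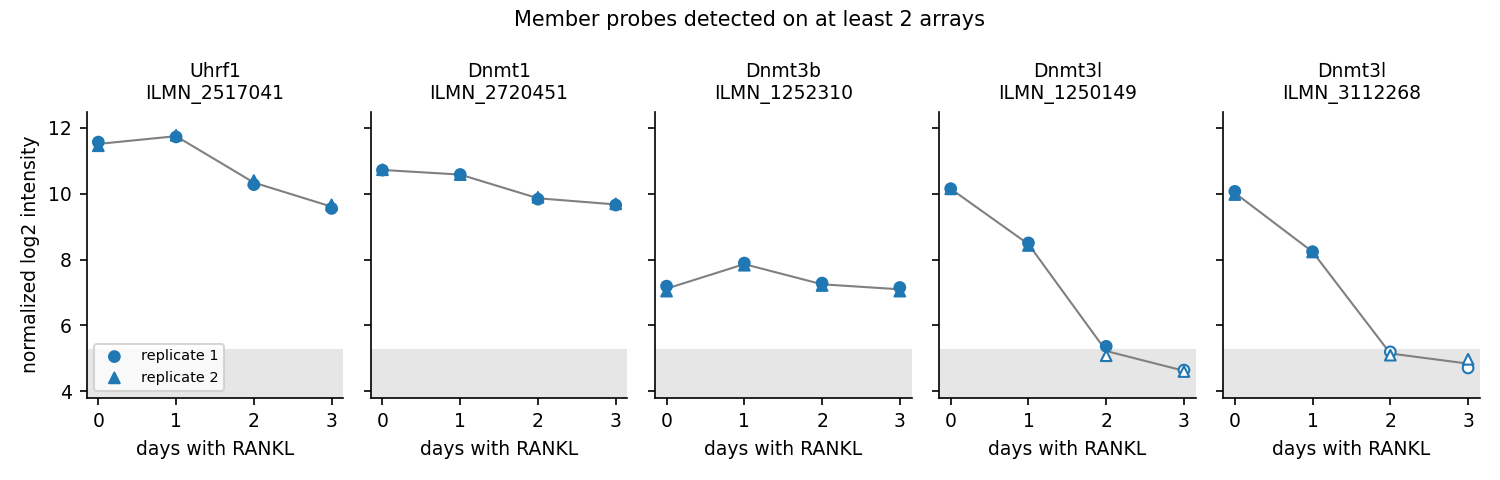
Normalized log2 intensity of the 5 tested probes by day, 1 point an array (circles replicate 1, triangles replicate 2, open where not detected) with a line through the day means. Uhrf1 and Dnmt1 drop after day 1, and Dnmt3b is highest at day 1. The day 2 means of both Dnmt3l probes lie in the grey range below the lowest detected value, with 1 array of ILMN_1250149 above it.

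Dnmt3b, a de novo methyltransferase, had its highest level at day 1, which differed from each of the other days. The signal of ILMN_1252310 was 298 and 272 at day 0, 416 and 387 at day 1, 290 and 303 at day 2 and 262 and 265 at day 3. These are 149% to 224% of the lowest detected signal, so the gene was measured close to background, and both day 1 arrays exceeded the other 6. Its normalized log2 means were 7.12 ± 0.11, 7.86 ± 0.05, 7.25 ± 0.05 and 7.10 ± 0.08 at days 0, 1, 2 and 3 (SD, n = 2 arrays).

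Dnmt3b rose on the first day and fell on the second. Day 1 minus day 0 was 0.74 ± 0.10 (1.68-fold, limma adjusted p = 0.00114) and day 2 minus day 1 was -0.61 ± 0.10 (limma adjusted p = 0.00265), and day 3 minus day 1 was -0.77 ± 0.10 (limma adjusted p = 0.00061). Day 3 minus day 0 was -0.02 ± 0.10 with a 95% interval of -0.26 to 0.22 and did not pass (limma adjusted p = 0.878), nor did day 2 minus day 0 (0.13 ± 0.10, limma adjusted p = 0.315). With no background correction the day 1 change was 0.41, so its size rests on that step of the processing. The other probe, ILMN_3114377, which is annotated to another transcript of Dnmt3b, stayed at 149 to 184 and was not detected. A gene annotated as a pseudogene, Dnmt3b-ps1, lies downstream of Dnmt3b, and whether its transcripts reach the detected probe was not tested.

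Dnmt3l, the catalytically inactive partner of the de novo enzymes, fell on the first day and ended below detection. On ILMN_1250149 the signal was 1341 and 1249 at day 0, 566 and 518 at day 1, 183 and 184 at day 2 and 153 and 155 at day 3. On ILMN_3112268 it was 1273 and 1124 at day 0, 494 and 467 at day 1, 178 and 185 at day 2 and 156 and 170 at day 3. Both probes gave the same order of days, and no array of one day overlapped with those of another on either probe. At day 0 these signals stood at 629% to 755% of the lowest detected signal, so the transcript was well measured in macrophages before RANKL.

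The decline of Dnmt3l started on the first day, when Uhrf1 and Dnmt1 had no change that passed. Day 1 minus day 0 was -1.68 ± 0.12 on ILMN_1250149 and -1.79 ± 0.12 on ILMN_3112268 (limma adjusted p = 6.33e-05 and 4.81e-05), which left 31.1% and 28.9% of the day 0 level. At day 3 the probes were not above background, so the fold is given as a bound that sets each such array at the higher of its own value and its lowest detected value, and that holds only for the background correction used here. On that scale Dnmt3l at day 3 was at least 29.9-fold lower than at day 0 on ILMN_1250149, with normalized log2 means of 4.62 and 10.15 (limma adjusted p = 1.93e-07). On ILMN_3112268 it was at least 27.4-fold lower, with means of 4.84 and 10.03 (limma adjusted p = 2.54e-07). The size of the fall depended on the background step by over 1.5 times. The fitted log2 change at day 3 against day 0 on ILMN_1250149 was -5.53 here, -4.32 with an offset of 50, -4.04 on the authors' processed values and -3.01 without background correction. On ILMN_3112268 these changes were -5.19, -4.10, -3.65 and -2.82, and under each of these settings both probes passed. Day 3 minus day 2 passed on ILMN_1250149 (limma adjusted p = 0.0174) between values around the detection limit, and the call was lost without day 2 replicate 1 (0.0816), day 3 replicate 1 (0.0535) or day 3 replicate 2 (0.0766). It did not pass on ILMN_3112268 (limma adjusted p = 0.110).

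Markers of macrophages and of other cells moved over the same days as Dnmt3l, most of them down and some up. Of all 8663 genes tested, 21% were lower and 23% higher at day 1 than at day 0, and 29.3% lower and 28.7% higher at day 3, the background of the marker and gene list counts. Of 6 tested macrophage markers 4 fell at day 1 and 5 at day 3, and none rose. Of 6 tested neutrophil and granulocyte precursor markers 5 fell at day 3, and the summed level of that list was 339 to 347 at day 3, against 1190 to 1290 at day 0, with Ngp not detected. The T and NK list summed to 216 to 227 at day 3, against 1450 on both arrays of day 0, with Cd3e, Cd3d and Ncr1 not detected on any array. That sum rests on Il7r (-4.09), while Klrb1c, the other tested gene of the list, was not detected at days 0 and 1 and was higher at day 3 (limma adjusted p = 0.0206). The erythroid and megakaryocyte list summed to 156 to 175 at day 3, against 1670 to 2090 at day 0, with Pf4 changed by -4.37 and Hba-a1, Itga2b and Gata1 not detected. The B lineage list summed to 134 to 149 at day 3, against 287 to 290 at day 0, with Cd79a, Ms4a1 and Pax5 not detected. The stromal and osteoblast list summed to 175 to 194 at day 3, against 144 to 147 at day 0, with Dcn, not detected at day 0, higher at days 1 and 3 (limma adjusted p = 7.16e-05 and 0.00156) and Col1a2, Bglap and Pdgfra not detected. The dendritic list summed to 152 at day 3, against 138 to 149 at day 0, with Flt3, Itgax and Ccr7 not detected. Siglech was detected at day 0 only and was lower at day 3 (limma adjusted p = 0.00183). Zbtb46 was detected on 1 array of day 2 and 2 of day 3 and was higher at day 3 (limma adjusted p = 0.0168). Of the neutrophil list genes that fell, S100a9, Mpo, Elane and Ltf were detected at days 0 and 1 only. These genes, Klrb1c, Dcn, Zbtb46 and Siglech passed the filter through the days on which they were bright. A difference between days is therefore built into their selection. The mast cell and basophil list summed to 80.5 to 87.6 at day 3, against 91.8 to 94.3 at day 0, with Cpa3 and Mcpt8 not detected. Each sum includes the offset of 16 added to every probe, and the probes that were not detected. The mast cell and dendritic sums, and the B lineage sum at day 3, are therefore largely background and show no level of such cells. The part of such cells in the fall of Dnmt3l was not tested.

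**Figure D4:**
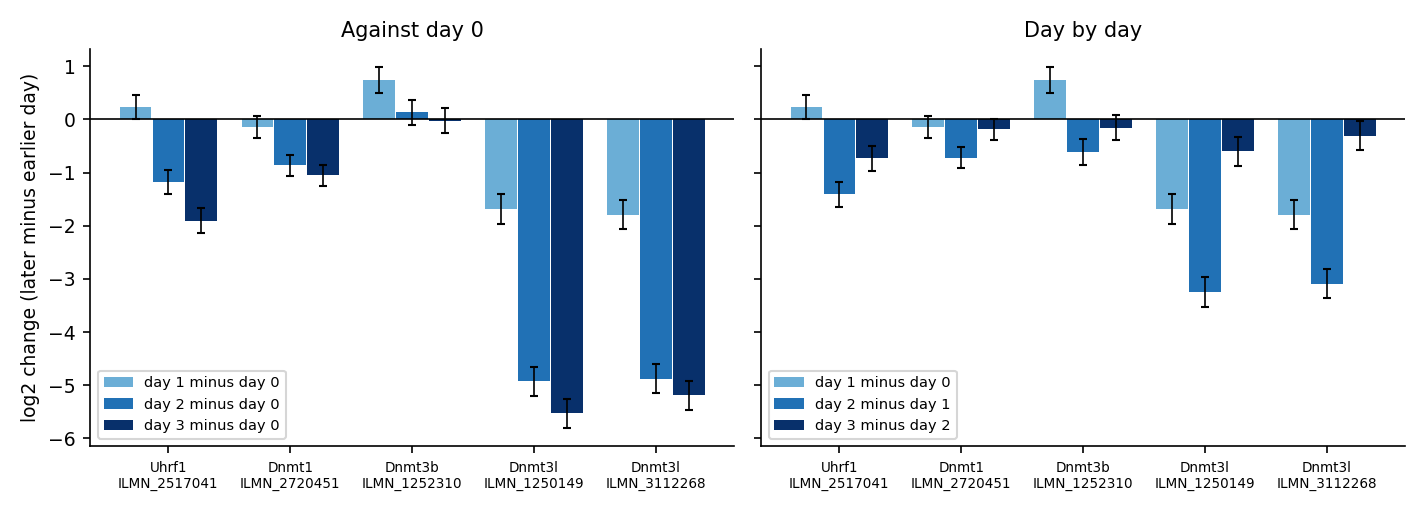
Log2 change of each tested probe against day 0 (left) and from each day to the next (right), as later minus earlier day, with 95% confidence intervals as error bars. Bars of Dnmt3l at days 2 and 3 rest on levels at or below the detection limit, so their length is no measured fold. The step from day 1 to day 2 is negative for all 5 probes.

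Dnmt3a and Tet3 gave no measurable level at any day. The Dnmt3a probes gave signals of 144 to 166 (ILMN_1224446) and 141 to 161 (ILMN_1259562), or 78.7% to 90.8% of the lowest detected signal of their arrays, with detection p-values of 0.277 or more. The Tet3 probes, for a 5-methylcytosine dioxygenase, gave 161 to 179 (ILMN_1223556) and 148 to 169 (ILMN_2737328). The nearest of them to detection was ILMN_1223556, with a detection p of 0.0564 on 1 array of day 2 and 0.0639 on 1 array of day 0. The levels of both genes lay under what these probes could separate from background, which does not show that the transcripts were absent.

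Counted over the 5 tested probes, which stand for 4 genes, 1 was higher and 2 were lower at day 1 than at day 0, against 23.6% and 19.4% of all 12683 probes tested (43% in either direction). At day 2 and at day 3, 4 were lower and none higher than at day 0, against 24.1% of all probes lower, 26.7% higher and 50.8% either way at day 2, and 28.1% lower, 28.1% higher and 56.2% either way at day 3. From day 1 to day 2 all 5 were lower (23.5% of all probes, with 21.1% higher and 44.7% either way), and the same held for day 3 against day 1 (30% of all probes, with 26.9% higher and 56.9% either way). From day 2 to day 3, 2 were lower (9.82% of all probes, with 8.7% higher and 18.5% either way). The moderated F test over the 4 days called all 5, against 69.9% of all probes, a background that is high in these data. The median change of the 5 probes at day 3 against day 0 was -1.91, beside -0.01 over all probes tested. The 3 comparisons with day 0 share its arrays, and because of the selection named above these counts describe the probes and are not evidence of a shift of the family.

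The genes whose profile over the 8 arrays was most like that of each detected member were named by Pearson's r over those arrays, as a description (the 8 arrays stand for 4 days of one culture scheme, and 6548 genes detected on all arrays were searched). For Uhrf1 they were the replication factor gene Mcm10 (r = 0.998), the ribonucleotide reductase gene Rrm1 (r = 0.997) and Hirip3 (r = 0.996). Mcm10 had log2 means of 11.34, 11.55, 10.06 and 9.42 at days 0, 1, 2 and 3. For Dnmt1 they were Parp1, Slc11a1 and Endod1 (r = 0.998, 0.997 and 0.997), and for Dnmt3b Zfp213, Eif4h and Bag5 (r = 0.991, 0.989 and 0.987). For Dnmt3l, which the rule left out since it was not detected on all arrays, a search of 8662 tested genes added after its values were seen gave the interleukin-7 receptor gene Il7r, the glutaredoxin gene Glrx and the leukotriene pathway gene Alox5ap (r = 0.999, 0.999 and 0.998). Such likeness is common with 4 days and strong changes: 383 genes reached r of at least 0.95 with Uhrf1, 406 with Dnmt1, 86 with Dnmt3b and 426 with Dnmt3l.

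Genes that work with maintenance methylation at the replication fork fell in part over the days on which Uhrf1 and Dnmt1 fell. Of 10 tested partners 5 fell and 1 rose at day 3 against day 0 (median log2 change -0.60, beside -0.01 over all genes), while at day 1, 2 were lower and 1 higher. Over all genes 29.3% were lower and 28.7% higher at day 3, and 21% lower and 23% higher at day 1. The PCNA-associated factor gene Pclaf changed by -2.60, Cdca7, which helps the remodeller HELLS, by -2.44, the DNA ligase gene Lig1 by -2.19 and the sliding clamp gene Pcna by -1.91 (limma adjusted p between 2.18e-06 and 6.93e-05). Hdac1 also fell, and Zbtb24 was the gene that rose (limma adjusted p = 0.000456 and 0.00183). Uhrf2, the paralogue of Uhrf1, did not pass at day 3 (limma adjusted p = 0.394), and Hells was detected on 1 array only and not tested. Of 27 tested genes of DNA replication and S phase, a list that shares Pcna and Lig1 with the partners, 23 fell and 1 rose at day 3 (median -1.67), with Mcm3 at -2.40, Tk1 at -2.38 and Cdc45 at -2.23. At day 1, 3 of these 27 were lower and 4 higher, a count that became 1 lower and 7 higher with median scaling and 3 lower and 7 higher on the authors' processed values. All 6 tested mitosis genes fell at day 3 (median -2.10), among them Plk1 (-2.18) and Cdk1 (-2.16), and at day 1 none was lower and 1 higher. The part of cell division in the levels of Uhrf1 and Dnmt1 was not tested.

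**Figure D5:**
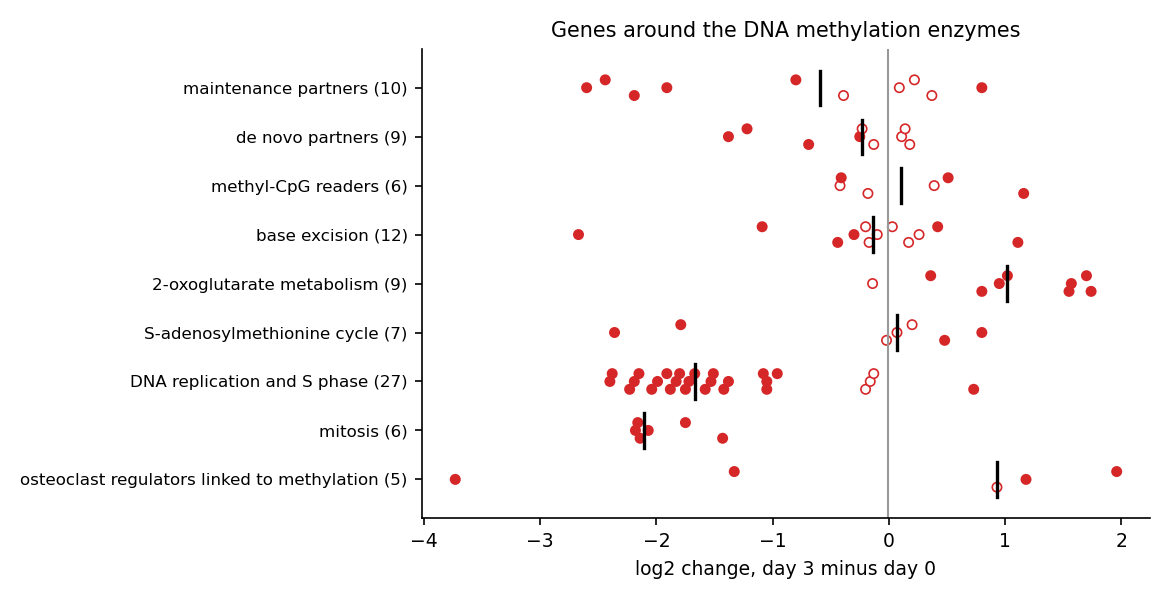
Log2 change from day 0 to day 3 of the tested genes of 9 lists around DNA methylation, 1 point a gene (filled where the adjusted p was under 0.05), with the list's median as a black bar and the median of all genes as a grey line. Replication, S phase and mitosis genes lie between -2.40 and 0.73, while 8 of 9 genes of 2-oxoglutarate metabolism lie above 0.

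Among chromatin partners of the de novo enzymes, single genes were higher at day 1 and single genes were lower at day 3. At day 1, 3 of 9 tested genes were higher and none lower, and at day 3, 4 were lower and none higher. Cbx5, which codes for the heterochromatin protein HP1 alpha, had log2 means of 8.74 ± 0.00, 9.30 ± 0.10, 8.13 ± 0.07 and 7.36 ± 0.19 at days 0, 1, 2 and 3 (SD, n = 2 arrays), so its highest level was at day 1, as for Dnmt3b. Trim28, the KAP1 corepressor gene, was higher at day 1 by 0.50 (limma adjusted p = 0.00706) and changed by -0.69 at day 3 (limma adjusted p = 0.00103), both against day 0. Ezh2, the H3K27 methyltransferase gene, changed by -1.22 and Ehmt2, an H3K9 methyltransferase gene, by -0.25 at day 3 (limma adjusted p = 0.000593 and 0.0460). Setd2 and Nsd1, whose products methylate the H3K36 residue that the de novo enzymes read, did not pass (limma adjusted p = 0.758 and 0.638).

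Genes that read or remove methylated and oxidised bases moved one by one. Of 6 tested methyl-CpG readers 2 rose and 1 fell at day 3. Zbtb33 (Kaiso) changed by 0.51 and Mbd1 by -0.41. Zbtb38 had log2 means of 6.26 at day 3 and 5.10 at day 0. It was detected at days 2 and 3 only, so a difference between days is built into its selection. With median scaling the reader count was 1 higher and 2 lower. Of 12 tested base excision genes 2 rose and 4 fell. Over all genes 28.7% were higher and 29.3% lower, so neither count is read as a shift of the list. The glycosylase gene Tdg, which removes the oxidation products of TET enzymes, rose by 0.42 (limma adjusted p = 0.0246), as did Gadd45b by 1.11, and Gadd45g (-2.67), Parp1 (-1.09), Neil1 (-0.44) and Ung (-0.30) were the genes that fell. With median scaling 1 base excision gene was higher and 6 were lower. Neil1 was detected on only 1 array of day 0 and 1 of day 2, and Neil2 and Neil3 were not detected on any array.

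On the metabolic side of the reactions, genes of 2-oxoglutarate metabolism were mostly higher at day 3. Of 9 tested genes of the 2-oxoglutarate list, 8 rose and none fell at day 3 (median 1.02). The list is built around the TET cosubstrate, and it also holds Sdhb and Fh1, whose enzymes neither make nor use 2-oxoglutarate. Sdhb rose by 1.74, Idh3a by 1.70, Ogdh by 1.57 and Idh3b by 1.55, and Idh1 did not pass (limma adjusted p = 0.276). Of 7 tested genes of the S-adenosylmethionine cycle, which makes the methyl donor, 2 rose and 2 fell. That count lies near the share over all genes (28.7% higher and 29.3% lower). Ahcyl2 changed by -2.36, the adenosine kinase gene Adk by -1.79 and Mat2b by 0.80. Ahcy, which clears the inhibitory product S-adenosylhomocysteine, changed by 0.48. Mat1a, Bhmt, Gnmt, Nnmt and Cbs were not detected.

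Genes known as methylation-silenced in somatic cells and regulators tied to methylation in osteoclasts were read beside the enzymes. Of 11 measured germline genes that DNA methylation holds silent, such as Dazl, Ddx4 and Stra8, none was detected on any array at any day. Of all 25697 probes, 43.9% to 44.2% were detected per array and 12683 on at least 2 arrays. The share detected on any array, which would be the like measure, is not given here. Whether methylation kept these genes below detection here was not tested. Of 5 measured osteoclast regulators, Irf8, the DNMT3A target, had log2 means of 9.07 ± 0.00, 5.76 ± 0.04, 5.13 ± 0.59 and 5.34 ± 0.08 at days 0, 1, 2 and 3 (SD, n = 2 arrays, 1 of them detected at day 2). Its day 1 minus day 0 was -3.31 (limma adjusted p = 8.8e-05), and its day 2 minus day 1 did not pass (-0.63, limma adjusted p = 0.0768). At day 1 the Irf8 level already lay close to the lowest detected value (5.24 on the log2 scale). A further fall could therefore hardly be measured. Spi1, the gene of PU.1, which is known to bind DNMT3B and TET2 in human osteoclast precursors, rose by 1.18 at day 3, and Nfatc1 by 1.96. Bcl6 changed by -1.33 at day 3, and Prdm1 gave 0.93 at day 3 without passing (limma adjusted p = 0.0765). At day 2 against day 0, Prdm1 was higher by 1.48 (limma adjusted p = 0.0157). Prdm1 was detected on no array of day 0, on both of day 2 and on 1 of day 3, so a difference between days is built into its selection. No methylation was measured in this study.

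Neighbours that overlap or lie within 15000 bases of Dnmt3l, Uhrf1 and Dnmt1 were compared with them, a comparison added after the values were seen. Aire overlaps Dnmt3l by 1324 bases, and its 3 probes were not detected on any array. Kdm4b lies 2484 bases from Uhrf1, and its brightest probe was higher at day 3 by 1.13 (limma adjusted p = 5.26e-05), where Uhrf1 was lower. S1pr2 lies 6064 bases from Dnmt1 and had its lowest mean at day 1 (8.23, against 9.55 at day 0), and changed by -0.36 at day 3 against day 0 (limma adjusted p = 0.0230), where Dnmt1 changed by -1.05. Plin3, a lipid droplet protein gene 12826 bases from Uhrf1, rose by 1.39 at day 3 (limma adjusted p = 0.000125).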

How the data were processed

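The authors deposited 1 signal intensity per probe and array of the MouseRef-8 v2.0 Expression BeadChip, on a linear scale and, from its values, neither background-subtracted nor normalized between arrays. Beside it they deposited a detection p-value, whose steps imply 798 negative controls. The authors' processed intensity values (56 probes without a value) are also linear, with array medians of 90.9 to 97.3, and served as an alternative. The background taken off them and the scanner's software are not given in the sources used here.

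R 4.3.3 and its package limma 3.58.1 (function neqc) corrected background by normexp, with the detection p-values standing in for control probes, an offset of 16, quantile normalization and log2. The 12683 of 25697 probes that 2 or more of the 8 arrays detected (p under 0.05) were fitted with lmFit and eBayes over 4 day groups (4 residual degrees of freedom), with Benjamini-Hochberg adjustment over all of them per comparison and 0.05 as threshold. The number of arrays limits the precision (median SE 0.13 on the log2 scale). Symbols came from the platform annotation (23978 probes with 1 symbol, 1719 without, none with several) and, matched by Entrez number for 23962 probes, RefSeq changed none of them. Lists used the brightest tested probe of a gene and are described by counts and medians. Of each list, up to 4 genes called at day 3 with the largest change were named, and all osteoclast regulators, with further members where a count turned on them. The 3 genes most like each member were taken by r. The members, lists and tests were chosen with earlier results of these data known. The fit was tested on simulated data.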

Additional observations from a re-analysis of the deposited data

How the results depend on the processing

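Of 612 recomputed changes of the 5 probes over 21 alternatives, 602 kept their direction and side of the threshold and none that passed changed sign. Requiring detection on all 8 arrays removes both Dnmt3l probes, so the count of called probes became 1 for day 1 minus day 0, 2 for days 2 and 3 minus day 0, 3 for day 2 minus day 1, for day 3 minus day 1 and for the F test, and 1 for day 3 minus day 2. That last count of 2 also became 1 without background correction, with an adjusted p under 0.01 and with only the arrays compared, and lay between 1 and 2 when single arrays were left out. It lost the Dnmt3l probe ILMN_1250149, without day 2 replicate 1, day 3 replicate 1 or day 3 replicate 2 (limma adjusted p = 0.0816, 0.0535 and 0.0766). Dnmt3b at day 3 against day 0, which did not pass, was 0.056 and 0.035 without day 0 replicate 1 and day 3 replicate 2. With replicate block, the counts of called probes were 3, 4 and 4 for days 1, 2 and 3 against day 0, 5 for day 2 minus day 1, 2 for day 3 minus day 2, 5 for day 3 minus day 1 and 5 for the F test, as without it. Deviations of the replicate 1 arrays from their day means correlated between days at -0.09 to 0.08. With 2 arrays a day, these values cannot show whether same-numbered samples share a culture, mouse or run. With median scaling the median of all probes was -0.22 for day 3 minus day 1, 0.15 for day 1 minus day 0 and -0.14 for day 2 minus day 1, and the share of calls that were higher was 35.7% for day 2 minus day 1 (47.3% with quantile normalization), 29% for day 3 minus day 2 (47%) and 34.1% for day 3 minus day 1 (47.3%). The changes of Uhrf1, Dnmt1 and Dnmt3b from day 1 to day 2 were then -1.54, -0.88 and -0.78. No slide is given in the headers, so the slide block was not run. Without background correction the change of Dnmt3l at day 3 against day 0 was -3.01 (ILMN_1250149) and -2.82 (ILMN_3112268) on the log2 scale. Levels below the lowest detected signal limit what can be said of Dnmt3a, Tet3 and late Dnmt3l.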
